A study of Mus musculus with 21 samples.

Results

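Hdac1, Hdac2 and Hdac3, class I histone deacetylases, and the 7 sirtuins Sirt1 to Sirt7 were followed as 2 families that include enzymes known to take lactyl groups off lysine. The activity is described for the products of Hdac1, Hdac2 and Hdac3 and for some of the sirtuins, not for all of them. The class I sums and shares below are over Hdac1, Hdac2 and Hdac3, and leave out Hdac8, the remaining class I gene. The members were chosen by gene name, and all 10 were found among the 21161 gene names of a cell-state table and the 55291 names of a lactate table. All 10 also passed the filter for testing in both tables, which asked for at least 1 FPKM (fragments scaled to transcript length and library size) in at least 3 libraries of a table. The mouse cells carry the line name OG2, known for a GFP transgene under control of Pou5f1 sequences. In the cell-state table, 4 kinds of OG2 cell were sequenced, with 3 libraries of each and WT as the label of all: 2CLCs, which are cells resembling the 2-cell embryo; ESCs, or embryonic stem cells; EpiSCs, the stem cells of the later epiblast; and MEFs, fibroblasts of the embryo. The lactate table holds 3 libraries each of OG2 ESCs at 0, 60 and 80 mM sodium lactate, the 0 mM cells being labelled WT. How the 2CLCs were made, how long lactate was given and whether replicates were separate cultures are not stated in the labels, so the spread behind each p-value may be technical. No group with another sodium salt was used here, so lactate and the added sodium or osmolarity cannot be told apart.

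Lysine lactylation is a modification of histones and other proteins that draws on lactate. Class I deacetylases use zinc and work inside corepressor complexes in the nucleus, whereas sirtuins use NAD and are spread over nucleus, cytosol and mitochondria. Members of both families can remove lactyl as well as acetyl groups, and mRNA levels do not measure that activity.

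The labelled cell types were checked against their markers. In 2CLCs the 6 measured markers of the 2-cell-like state summed to between 10648 and 11827 FPKM, against 4.23 to 4.599 in ESCs. The 10 fibroblast markers summed to between 1070 and 1111 FPKM in MEFs and stayed between 3.21 and 16.05 FPKM in the other cell states. The 6 primed markers summed to between 473 and 621 FPKM in EpiSCs and to at most 35.2 elsewhere in that table, and the 6 naive markers summed to between 1049 and 1063 FPKM in ESCs. EpiSC replicate 1 stood apart: its correlation across genes with the other EpiSC libraries was 0.973, against 0.995 (Pearson's r) between those. The number of reads behind each library is unknown.

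FPKM corrects for transcript length, so levels can be set side by side between genes. Hdac1 was the highest of the 10 in 2CLCs, ESCs and EpiSCs, and Hdac2 was the highest in MEFs. In ESCs of the cell-state table the order of mean levels ran Hdac1, Hdac2, Hdac3, Sirt1, Sirt6, Sirt2, Sirt3, Sirt7, Sirt4 and Sirt5, from 153 down to 3.08 FPKM. In ESCs the ranges of Sirt3 and Sirt7 overlapped, and those of the other neighbours in that order did not.

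The upstream sequences of 3 sirtuin genes are shown because Sirt1 and Sirt6 were both lower in EpiSCs and MEFs than in ESCs and Sirt5 was near 0 in 2CLCs. They are the bases before the transcription start that lie in no annotated exon, from RefSeq on GRCm38.p6, written 5′ to 3′ along the gene's strand. Capitals mark the SP/KLF box GGGCGG (or its reverse complement CCGCCC), the E-box CACGTG and the CCAAT box.
Sirt1, chr10:63339051-63339285, minus strand, bases -250 to -16: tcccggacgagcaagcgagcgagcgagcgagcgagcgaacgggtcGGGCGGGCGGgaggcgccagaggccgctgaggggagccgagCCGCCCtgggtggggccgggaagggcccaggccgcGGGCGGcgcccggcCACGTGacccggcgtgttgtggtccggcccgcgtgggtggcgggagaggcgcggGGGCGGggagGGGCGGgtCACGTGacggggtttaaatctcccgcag
Sirt6, chr10:81627323-81627471, minus strand, bases -149 to -1: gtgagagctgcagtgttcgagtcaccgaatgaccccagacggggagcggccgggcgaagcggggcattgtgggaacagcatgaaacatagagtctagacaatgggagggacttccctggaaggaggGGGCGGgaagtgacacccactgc
Sirt5, chr13:43365285-43365495, plus strand, bases -250 to -40: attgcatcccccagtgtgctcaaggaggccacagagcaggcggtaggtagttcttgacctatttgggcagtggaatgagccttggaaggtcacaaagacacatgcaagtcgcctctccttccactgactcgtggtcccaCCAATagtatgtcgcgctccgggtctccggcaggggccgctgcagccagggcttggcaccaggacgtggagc
The 250 bases before the Sirt1 start held 6 matches to GGGCGG, with first bases at -205, -201, -164, -129, -61 and -51, of which the first 2 overlap each other. They also held 2 matches to CACGTG, at -115 and -43. Counting both strands, GGGCGG is found in 32.7% and CACGTG in 6.02% of 32851 RefSeq windows of the same length. The Sirt6 stretch, which lies before the more downstream of its RefSeq starts, held GGGCGG at -23, and the Sirt5 stretch held CCAAT at -111, a motif found in 33.8% of windows. A GGGCGG match at -36 before Sirt5 lies in an annotated exon and is not shown. The shorter letters ACGTG, searched as a hypoxia core and held by 16.6% of windows, lie inside both Sirt1 CACGTG matches. A further ACGTG match stood at -48 before Sirt5. The letters of the ETS (CCGGAA), NRF1 (GCATGCG, 3.02% of windows) and YY1 (ATGGCGG, 2.21%) cores were not found in the Sirt1 and Sirt5 windows, nor in the Sirt6 window shown. A window before the other RefSeq start of Sirt6, mostly exonic and not shown, held CCGGAA at -34 (found in 3952 of the 32851 windows), overlapping matches to GCATGCG at -142 and -141, and ACGTG at -106 and -83. These matches describe letters in a window, and binding was not measured here.

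Among class I genes, Hdac3 was lower in 2CLCs than in ESCs, while Hdac1 and Hdac2 did not pass the test on the deposited scale. Hdac3, the catalytic subunit of the NCoR corepressor complex, lies at chr18:37935844-37955016 (GRCm38, minus strand, 12 merged exons). Its level was 16.4, 14.7 and 16.3 FPKM in 2CLCs, and each ESC library held more, with 35.4, 35.1 and 36.0 FPKM. The groups did not overlap, and Hdac3 was 2.25-fold lower in 2CLCs (15.8 ± 0.987 against 35.5 ± 0.471 FPKM, SD, n = 3; log2 fold change of FPKM + 1, -1.12, SE 0.09; limma adjusted p = 5.52e-07). Hdac1, whose product pairs with that of Hdac2 in the Sin3, NuRD and CoREST complexes, read 163, 165 and 155 FPKM in 2CLCs and 154, 154 and 151 in ESCs. Its groups did not overlap, but the log2 difference of 0.07 (95% interval -0.10 to 0.24) did not pass (limma adjusted p = 0.407). Without EpiSC replicate 1 in the shared spread, a choice made after seeing the data, it did (limma adjusted p = 0.0445). Hdac2, the close paralogue of Hdac1, read 74.3, 78.6 and 76.8 FPKM in 2CLCs and 73.9, 76.2 and 73.5 in ESCs, which overlap (log2 difference 0.04, 95% interval -0.06 to 0.13).

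Of the sirtuins, 5 were lower in 2CLCs than in ESCs, among them all 3 mitochondrial ones, on a scale where 56.4% of all tested genes were called lower. Sirt5, a mitochondrial enzyme known for removing succinyl and malonyl groups, read 0.439, 0.182 and 0.0512 FPKM in 2CLCs and 3.17, 3.34 and 2.73 in ESCs. That is a 13.8-fold difference of the means, with a log2 fold change of FPKM + 1 of -1.75 (SE 0.14; limma adjusted p = 3.07e-07), a scale that understates changes near 0. Sirt3, the main mitochondrial deacetylase, read 2.60, 2.72 and 2.29 FPKM against 7.80, 7.68 and 6.48 (log2 fold change -1.23, SE 0.17; limma adjusted p = 3.70e-05). In both genes every 2CLC library lay below every ESC library. Sirt3 shares 7.0% of its exon bases with Ric8a and 5.73% with Psmd13 on the opposite strand, and since the sources used here do not say whether strand was counted, reads there cannot be told apart. Sirt4, a mitochondrial sirtuin acting on amino acid metabolism, read 2.57, 3.43 and 2.39 FPKM against 4.98, 4.29 and 4.34 (log2 fold change -0.55, limma adjusted p = 0.0103), a call lost under quantile normalization (0.132) and with median-of-ratios scaling (0.818), where its direction turned.

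Sirt6, a chromatin-bound deacetylase of H3K9 and H3K56, read 7.59, 9.69 and 8.06 FPKM in 2CLCs and 18.8, 17.6 and 15.98 in ESCs, a 2.07-fold difference (log2 fold change -0.97, SE 0.15; limma adjusted p = 8.47e-05). Sirt2, the largely cytosolic tubulin deacetylase, was lower by 0.29 on the log2 scale (7.69 ± 0.895 against 9.61 ± 0.114 FPKM; limma adjusted p = 0.0282), a call that was lost when 2CLC replicate 1 or 3 or any ESC library was left out (limma adjusted p up to 0.109). Sirt1, the nuclear deacetylase of p53 and histones, read 30.1, 33.0 and 31.1 FPKM in 2CLCs against 32.4, 31.9 and 31.8 in ESCs. Sirt7, the nucleolar sirtuin, read 6.44, 7.22 and 6.47 against 6.43, 7.32 and 6.42. The groups overlapped for both, with 95% intervals of the log2 difference of -0.55 to 0.49 for Sirt1 and -0.19 to 0.18 for Sirt7. Sirt7 shares 2.41% of its exon bases with Mafg and 1.05% with Mir6936 on its own strand, where strand cannot tell reads apart.

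In all, 0 of 10 members were higher and 6 lower in 2CLCs than in ESCs, where 76.5% of all 16358 tested genes were called (20.1% higher and 56.4% lower). The groups did not overlap for 7 members and for 82.5% of all genes. The median log2 difference was -0.42 over the members and -0.46 over all genes, so most of the 2CLC transcriptome reads lower on the deposited scale. FPKM is scaled to library size and does not measure mRNA per cell. Less mRNA of a gene, fewer cells that express it and a larger share taken by other genes cannot be told apart here. The 6 markers of the 2-cell-like state alone summed to between 10648 and 11827 FPKM in 2CLCs, against 4.23 to 4.599 in ESCs. Their part in the lower median was not tested. Median-of-ratios scaling, which sets the typical gene level between libraries, moved the split to 5 higher and 3 lower. On it Hdac1 (log2 fold change 0.84), Hdac2 (0.80), Sirt1 (0.72), Sirt7 (0.68) and Sirt2 (0.40) were higher in 2CLCs, Sirt1, Sirt7 and Sirt2 against their deposited direction. Hdac3 (-0.39), Sirt3 (-0.63) and Sirt5 (-1.48) were lower on that scaling too, and under quantile normalization. Sirt6 kept its direction but not its call with median-of-ratios scaling (-0.27, limma adjusted p = 0.118), and Sirt4 turned to 0.05. On both scales the log2 differences of Hdac1, Hdac2, Sirt1 and Sirt7 stood above those of Hdac3, Sirt3, Sirt5 and Sirt6.

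**Figure D1:**
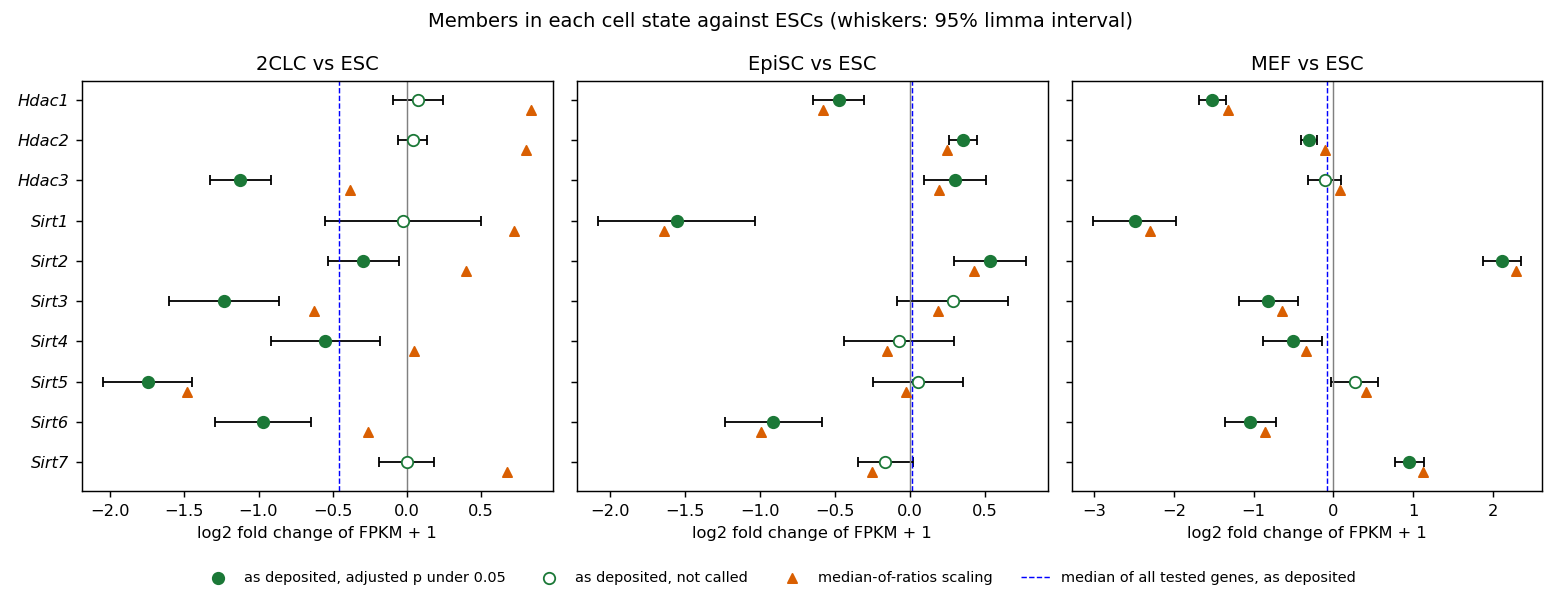
Log2 fold change of FPKM + 1 of each member in 2CLCs, EpiSCs and MEFs against ESCs (3 libraries a group): circles are the deposited scale with 95% limma intervals, filled where the adjusted p is under 0.05, triangles are median-of-ratios scaling, and the dashed line is the median of all tested genes. In 2CLCs the triangles lie to the right of the circles and Sirt1, Sirt2, Sirt4 and Sirt7 change side, whereas in MEFs, where Hdac3 changes side, Sirt1 (-2.49) and Sirt2 (2.11) stand far from 0 on both scales.

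EpiSCs differed from ESCs by higher Hdac2, Hdac3 and Sirt2 and lower Hdac1, Sirt1 and Sirt6. Sirt1 read 17.7, 8.52 and 6.94 FPKM in EpiSCs, all below the ESC values of 31.8 to 32.4 (11.1 ± 5.83 against 32.0 ± 0.297 FPKM; log2 fold change -1.56, SE 0.24; limma adjusted p = 0.000164). The high value is that of replicate 1, the library that stands apart. Sirt6 read 6.73, 9.65 and 10.4 FPKM, below every ESC library (log2 fold change -0.91, SE 0.15; limma adjusted p = 0.000236). For Sirt6 replicate 1 was the lowest of the 3.

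Hdac1 read 127, 101 and 103 FPKM in EpiSCs against 151 to 154 in ESCs (log2 fold change -0.48, SE 0.08; limma adjusted p = 0.000243). Hdac2 went the other way, at 92.4, 97.6 and 96.3 FPKM against 73.5 to 76.2 (log2 fold change 0.35, SE 0.04; limma adjusted p = 3.24e-05). The paralogues were thereby closer in level in EpiSCs, with Hdac1 at 1.16 ± 0.188 times Hdac2, against 2.05 ± 0.0357 times in ESCs. The EpiSC ratio ran from 1.04 to 1.38, the highest being that of replicate 1. Hdac3 read 36.7, 48.2 and 47.8 FPKM (log2 fold change 0.30, limma adjusted p = 0.0165), and this call was lost with median-of-ratios scaling (adjusted p = 0.109), in a fit of EpiSCs and ESCs alone (0.0579) or without EpiSC replicate 2 (0.0703) or 3 (0.0687). Sirt2 read 11.8, 15.3 and 16.4 FPKM against 9.52 to 9.74 (log2 fold change 0.53, SE 0.11; limma adjusted p = 0.00128).

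Sirt3, Sirt4, Sirt5 and Sirt7 did not pass the test in EpiSCs. Their EpiSC means were 9.21 ± 1.79, 4.35 ± 1.23, 3.26 ± 0.645 and 5.90 ± 0.585 FPKM. Without EpiSC replicate 1, Sirt3 was called higher (log2 fold change 0.43, limma adjusted p = 0.0308) and Sirt4, still not called, turned from -0.07 to 0.13. Sirt5 turned to -0.03 with median-of-ratios scaling. Sirt7 was called lower without replicate 2 (-0.23, limma adjusted p = 0.042), as it was with median-of-ratios scaling (-0.25, limma adjusted p = 0.0217). EpiSC replicate 1 summed to 247 FPKM over 8 hypoxia-responsive genes, and replicates 2 and 3 to 1638 and 1678, against 102 to 105 in ESCs. Whether this has a part in the spread of Sirt1, Hdac1 and Hdac3 within EpiSCs was not tested. Of the 10 members, 3 were called higher and 3 lower, among 59.7% of all genes called (33.2% higher and 26.5% lower), and the groups did not overlap for 6 members and for 63.4% of genes. Median-of-ratios scaling gave 2 higher and 4 lower.

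MEFs showed the lowest Hdac1 and Sirt1 and the highest Sirt2 and Sirt7 of the 4 cell states. Sirt1 read 5.02, 4.88 and 4.73 FPKM in MEFs, 6.57-fold below ESCs (4.88 ± 0.143 against 32.0 ± 0.297 FPKM; log2 fold change -2.49, SE 0.24; limma adjusted p = 1.71e-06). Sirt2 read 45.5, 44.9 and 44.4 FPKM, 4.68-fold above ESCs (45.0 ± 0.560 against 9.61 ± 0.114 FPKM; log2 fold change 2.11, SE 0.11; limma adjusted p = 6.78e-09). The 2 deacetylases thus exchanged places: Sirt1 was 3.33 ± 0.0190 times Sirt2 in ESCs, and Sirt2 was 9.23 ± 0.157 times Sirt1 in MEFs. Sirt7 read 13.9, 14.6 and 13.4 FPKM against 6.42 to 7.32 (log2 fold change 0.95, SE 0.08; limma adjusted p = 7.82e-07).

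Hdac1 read 52.3, 53.4 and 52.8 FPKM in MEFs, 2.90-fold below ESCs (log2 fold change -1.52, SE 0.08; limma adjusted p = 5.94e-09). Hdac2 fell less, to 59.3, 61.4 and 59.8 FPKM (log2 fold change -0.30, SE 0.04; limma adjusted p = 5.71e-05), so that Hdac2 exceeded Hdac1 in every MEF library. Hdac3 stood at 33.5, 31.8 and 33.3 FPKM, just below the ESC range of 35.1 to 36.0, and did not pass (log2 difference -0.11, 95% interval -0.31 to 0.10; with median-of-ratios scaling 0.09), though it was called in a fit of MEFs and ESCs alone (limma adjusted p = 0.0135) and without EpiSC replicate 1 in the shared spread (0.0462). Sirt6 read 7.003, 8.25 and 8.74 FPKM (log2 fold change -1.04, SE 0.15; limma adjusted p = 4.82e-05). Sirt3 read 4.90, 2.79 and 3.70 FPKM (log2 fold change -0.81, SE 0.17; limma adjusted p = 0.00092), and Sirt4 was lower by 0.51 on the log2 scale, a call lost with median-of-ratios scaling (limma adjusted p = 0.0759) or without ESC replicate 1 (0.0563) or MEF replicate 3 (0.0557). Sirt5 read 3.77, 3.70 and 4.25 FPKM, above the ESC range of 2.73 to 3.34, and did not pass (log2 difference 0.27, limma adjusted p = 0.0962), though it did in a fit of MEFs and ESCs alone (0.0133), with median-of-ratios scaling (0.0287) and with a pseudocount of 5 (0.0454). In MEFs 2 of 10 members were higher and 6 lower, among 75.3% of all genes called (34.4% higher and 40.9% lower). The groups overlapped for 0 members, leaving all 10 apart, as were 83.5% of genes. Median-of-ratios scaling gave 3 higher and 5 lower.

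**Figure D2:**
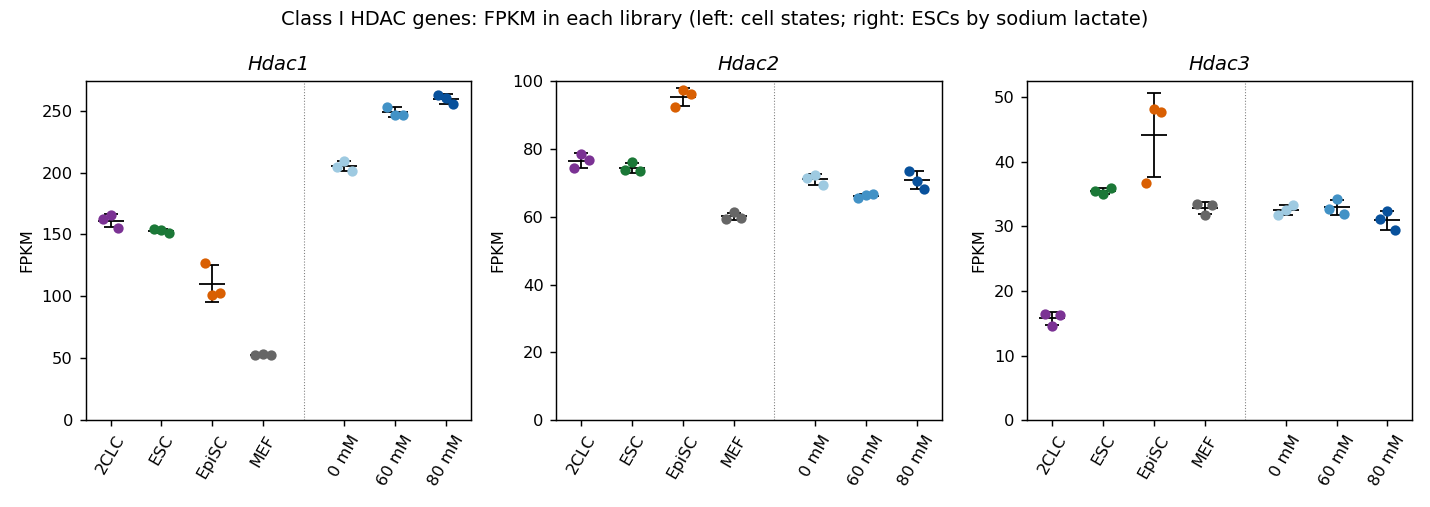
FPKM of the class I genes in each library, with the mean of 3 libraries (bar) and 1 SD (whisker), for the cell states on the left of the dotted line and ESCs at 0, 60 and 80 mM sodium lactate on the right. Hdac1 runs from 161 FPKM in 2CLCs to 52.8 in MEFs and from 205 to 260 with lactate, and Hdac3 is lowest in 2CLCs at 15.8.

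**Figure D3:**
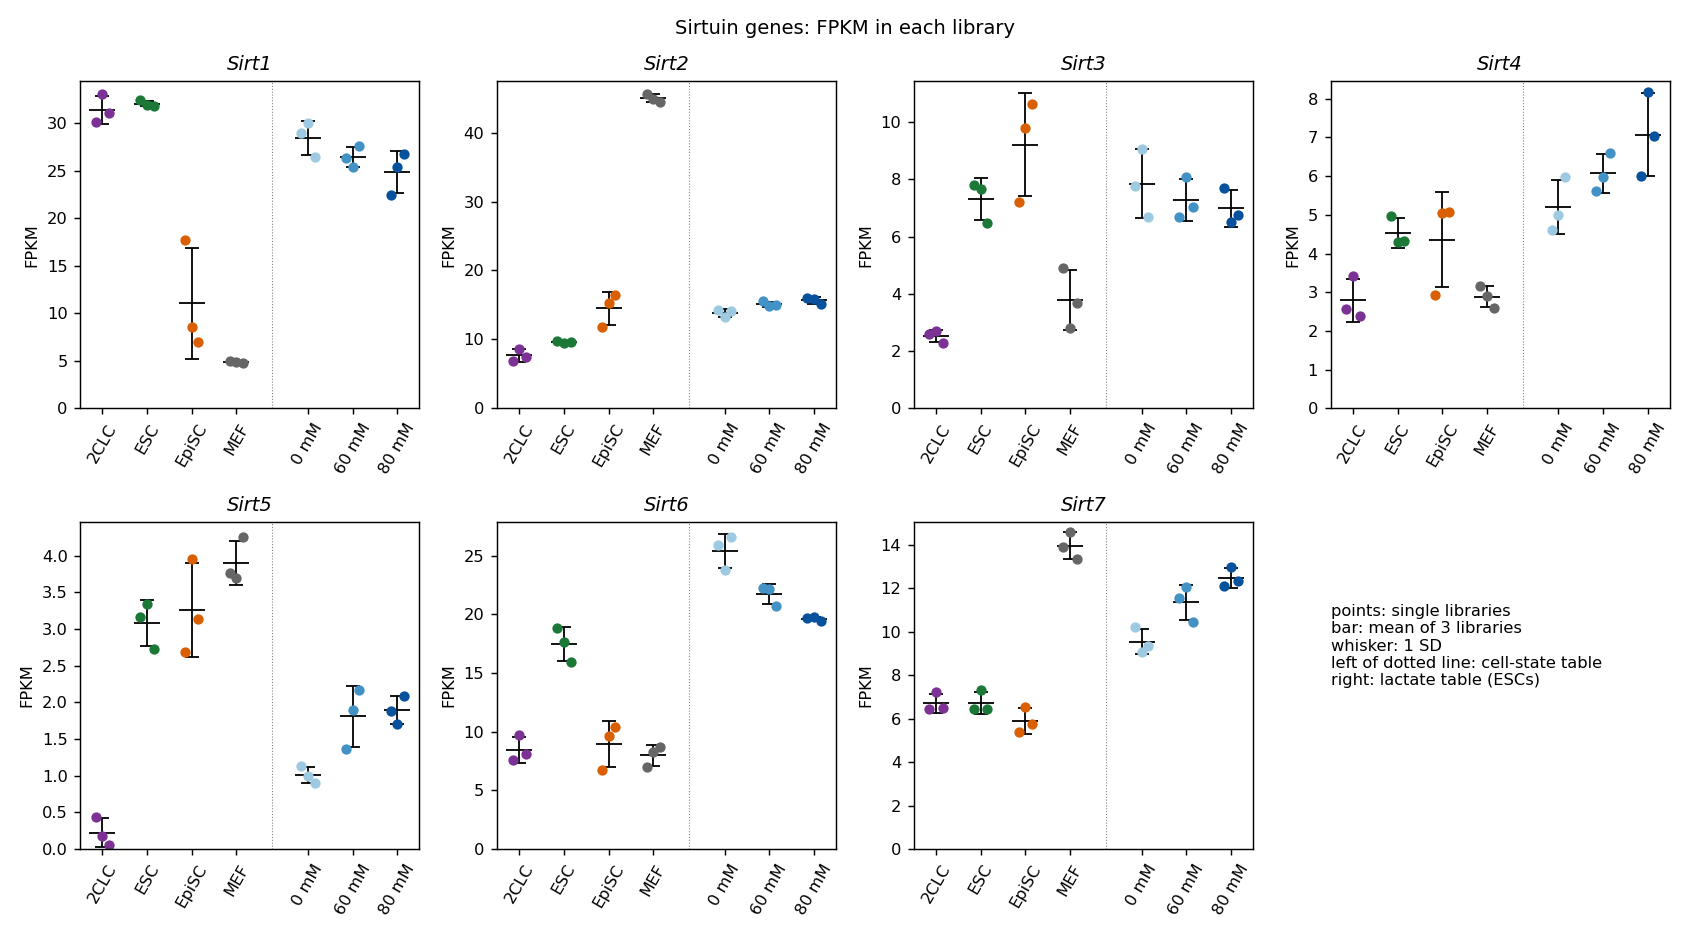
FPKM of the 7 sirtuin genes in each library, with the mean of 3 libraries (bar) and 1 SD (whisker), in the cell states and, right of the dotted line, in ESCs by sodium lactate dose. Sirt1 falls from 32.0 FPKM in ESCs to 4.88 in MEFs while Sirt2 stands at 45.0 in MEFs, Sirt5 is at 0.224 in 2CLCs, and EpiSC replicate 1 lies apart from the other EpiSC libraries in Sirt1.

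The other pairs of states use the same libraries. Between 2CLCs and EpiSCs, 2 members were higher in 2CLCs (Hdac1 and Sirt1) and 6 lower (Hdac2, Hdac3, Sirt2, Sirt3, Sirt4 and Sirt5), with 82.1% of all genes called (23.4% higher and 58.7% lower). Median-of-ratios scaling gave 5 higher and 3 lower, with Hdac2 turning from -0.31 to 0.55. Between 2CLCs and MEFs, 3 were higher in 2CLCs (Hdac1, Hdac2 and Sirt1) and 5 lower (Hdac3, Sirt2, Sirt3, Sirt5 and Sirt7), with 84.4% of all genes called (33.4% higher and 51% lower), and median-of-ratios scaling gave 5 and 4. The groups of these comparisons did not overlap for 7 and 8 members, against 80.6% and 88.3% of genes. Between EpiSCs and MEFs, 6 were higher in EpiSCs (Hdac1, Hdac2, Hdac3, Sirt1, Sirt3 and Sirt4) and 2 lower (Sirt2 and Sirt7), with 72.4% called (41.9% higher and 30.5% lower), 7 members and 73.9% of genes not overlapping, and 4 and 3 with median-of-ratios scaling. Several of these calls rested on single libraries or on the scaling. Sirt4 in 2CLCs against EpiSCs (limma adjusted p = 0.0201) was lost without 2CLC replicate 1 or 3 or EpiSC replicate 2 or 3 (0.0622 to 0.0795), and Sirt7 was called there without EpiSC replicate 2 (0.0298) and with the replicate number as a block (0.0395). Sirt2 in 2CLCs against EpiSCs went from -0.83 to -0.03 with median-of-ratios scaling and was no longer called (limma adjusted p = 0.818). Sirt3 in 2CLCs against MEFs (0.0363) was lost without any 2CLC library or MEF replicate 1 or 3 (0.0527 to 0.16) and with the block (0.0595). Sirt4 in EpiSCs against MEFs (0.0348) was lost without EpiSC replicate 2 or 3 or MEF replicate 2 or 3 (0.0711 to 0.127), and Hdac3 there was lost with median-of-ratios scaling (0.358). Hdac3 was lower in 2CLCs than in EpiSCs (log2 fold change -1.42) and MEFs (-1.01), and Sirt5 likewise (-1.80 and -2.01), also with median-of-ratios scaling (Hdac3 -0.58 and -0.47, Sirt5 -1.45 and -1.89). Sirt6 did not pass in any of these 3 comparisons on the deposited scale, with means of 8.45 ± 1.10, 8.93 ± 1.94 and 7.996 ± 0.894 FPKM in 2CLCs, EpiSCs and MEFs, but was higher in 2CLCs than in the other two with median-of-ratios scaling (0.73 and 0.59), and in EpiSCs than in MEFs without EpiSC replicate 1 (0.30, limma adjusted p = 0.0315).

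Shares within a library are untouched by a scaling factor common to all its genes. Hdac1 made up 63.5 ± 0.935% of the summed class I FPKM in 2CLCs, 58.2 ± 0.289% in ESCs, 44.1 ± 4.82% in EpiSCs and 36.2 ± 0.184% in MEFs. Its range did not overlap between any of these states. Hdac3 ran the other way, at 6.24 ± 0.497, 13.5 ± 0.288, 17.7 ± 2.95 and 22.5 ± 0.753%. The ratio of Hdac1 to Hdac3 was thus 10.2 ± 0.931 in 2CLCs, 4.31 ± 0.0954 in ESCs, 2.57 ± 0.773 in EpiSCs and 1.61 ± 0.0628 in MEFs, and the ranges did not overlap. In EpiSC replicate 1 the Hdac1 share was 49.6%, against 41.0 and 41.6% in the other EpiSC libraries.

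Among sirtuins, those of the nucleus (Sirt1, Sirt6 and Sirt7) made up 77.9 ± 0.996% of the summed FPKM in 2CLCs, 69.6 ± 0.462% in ESCs, 45.5 ± 8.20% in EpiSCs and 32.6 ± 1.34% in MEFs. The mitochondrial sirtuins (Sirt3, Sirt4 and Sirt5) made up 9.28 ± 0.940% in 2CLCs, 18.5 ± 0.845% in ESCs, 29.3 ± 4.95% in EpiSCs and 12.8 ± 1.37% in MEFs. Sirt2 took 12.8 ± 0.582, 11.9 ± 0.416, 25.3 ± 3.33 and 54.6 ± 0.246% in the same order. EpiSC replicate 1 had a nuclear share of 54.8%, which lay above the 42.0 and 39.6% of replicates 2 and 3.

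**Figure D4:**
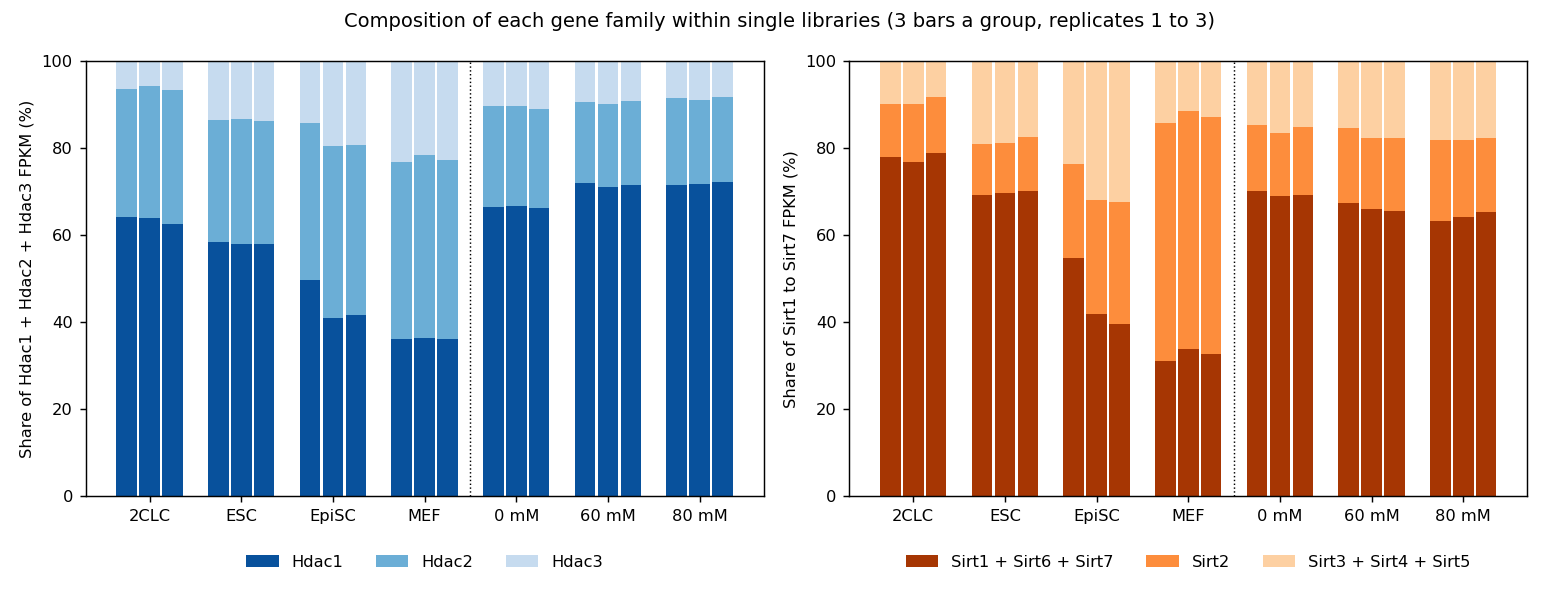
Stacked bars, 1 per library and 3 per group, of the share (%) of each class I gene in the class I sum and of nuclear, cytosolic (Sirt2) and mitochondrial sirtuins in the sirtuin sum, for cell states and, right of the dotted line, ESCs by sodium lactate dose. The Hdac1 share falls from 63.5% in 2CLCs to 36.2% in MEFs and rises from 66.4 to 71.8% with lactate, and Sirt2 takes 54.6% of the sirtuin sum in MEFs.

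In ESCs given sodium lactate, Hdac1 rose and Sirt6 fell at both doses. Sirt7 and Sirt5 were also called higher at both. The 60 mM call of Sirt7 was lost without some single libraries, and Sirt5 passed the filter only through the treated groups. Hdac1 read 204, 210 and 201 FPKM at 0 mM, 253, 246 and 247 at 60 mM and 263, 261 and 255 at 80 mM. The treated libraries lay above all untreated ones, with log2 fold changes of 0.28 (SE 0.03; limma adjusted p = 2.31e-05) at 60 mM and 0.34 (SE 0.03; limma adjusted p = 2.99e-06) at 80 mM. Hdac1 was also the only class I gene called at both doses. Hdac2 read 71.4, 72.5 and 69.4 FPKM at 0 mM and 65.7, 66.5 and 66.7 at 60 mM (log2 fold change -0.10, limma adjusted p = 0.0367), a call lost under quantile normalization (adjusted p = 0.0763), without the filter (0.0643), without the mean trend (0.0914) and without 0 mM replicate 1 or 2 or any 60 mM library (up to 0.113). At 80 mM Hdac2 read 73.5, 70.6 and 68.2 FPKM and overlapped the controls. Hdac3 read 31.7, 32.6 and 33.2 FPKM at 0 mM and 31.2, 32.3 and 29.4 at 80 mM (log2 difference -0.07, 95% interval -0.17 to 0.03), and was called lower at 80 mM with median-of-ratios scaling (-0.14, limma adjusted p = 0.0266).

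Among nuclear sirtuins, Sirt6 and Sirt7 changed in opposite directions. Sirt6 read 25.9, 23.8 and 26.6 FPKM at 0 mM, 22.2, 22.2 and 20.7 at 60 mM and 19.7, 19.7 and 19.5 at 80 mM. Neither dose overlapped the controls, and the log2 fold changes were -0.22 (SE 0.05; limma adjusted p = 0.00529) and -0.36 (SE 0.05; limma adjusted p = 0.000173). Sirt7 read 10.2, 9.08 and 9.35 FPKM at 0 mM, 11.5, 12.04 and 10.5 at 60 mM and 12.1, 12.998 and 12.3 at 80 mM. Its log2 fold changes were 0.23 (SE 0.06; limma adjusted p = 0.0171) and 0.36 (SE 0.06; limma adjusted p = 0.00102), the former lost without 0 mM replicate 2 (0.0608) or 60 mM replicate 1 (0.0506) or 2 (0.0656). The ratio of Sirt6 to Sirt7 within a library was 2.67 ± 0.159 at 0 mM, 1.92 ± 0.0691 at 60 mM and 1.57 ± 0.0547 at 80 mM, with no overlap between doses. This ratio was not set in advance, and it sets a gene that fell over a gene that rose. Neither gene was called between 80 and 60 mM (limma adjusted p = 0.131 for Sirt6 and 0.272 for Sirt7). Sirt1 read 28.9, 30.0 and 26.4 FPKM at 0 mM, 26.3, 25.4 and 27.6 at 60 mM and 22.5, 25.4 and 26.8 at 80 mM. It was called lower at 80 mM (log2 fold change -0.19, SE 0.07; limma adjusted p = 0.0407) although the groups overlapped. The call was lost with the replicate number as a block (0.0599), in a fit of those doses alone (0.0598), without the filter (0.108), without the mean trend (0.0635) and without 0 mM replicate 1 (0.102) or 2 (0.132) or 80 mM replicate 1 (0.143) or 2 (0.0612).

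Of the mitochondrial sirtuins, Sirt5 rose at both doses. It read 1.13, 0.994 and 0.906 FPKM at 0 mM, 1.36, 1.89 and 2.18 at 60 mM and 1.88, 1.71 and 2.09 at 80 mM, with no overlap with the controls. The log2 fold changes of FPKM + 1 were 0.47 (SE 0.12, limma adjusted p = 0.00969) and 0.52 (SE 0.12, limma adjusted p = 0.00408), and the means differed 1.79-fold and 1.87-fold. Of the untreated libraries only replicate 1 reached 1 FPKM. Sirt5 thus passed the filter through the treated groups, and its level lies near the floor. Sirt4 read 4.62, 5.005 and 5.98 FPKM at 0 mM and 6.02, 8.16 and 7.04 at 80 mM (log2 fold change 0.38, SE 0.11; limma adjusted p = 0.0159), which was lost without the filter (0.0537) or without 0 mM replicate 1 (0.0602) or 80 mM replicate 2 (0.0618). Sirt3 stood at 7.86 ± 1.19, 7.28 ± 0.727 and 6.99 ± 0.640 FPKM by rising dose and did not pass. Sirt2 read 14.2, 13.2 and 14.1 FPKM at 0 mM and 16.1, 15.9 and 15.1 at 80 mM (log2 fold change 0.17, SE 0.05; limma adjusted p = 0.0122), which was lost with median-of-ratios scaling (0.0842).

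At 60 mM 3 of 10 members were higher and 2 lower, with 42.1% of 13271 tested genes called (23.5% higher and 18.6% lower). At 80 mM 5 were higher and 2 lower, with 53.1% called (30% higher and 23.1% lower). The groups did not overlap for 6 members at either dose, against 53.2% and 60% of genes. The 60 mM count was 3 in all without 0 mM replicate 2 or without 60 mM replicate 1 or 2, and median-of-ratios scaling gave 4 higher and 3 lower at 80 mM. Both comparisons share the untreated libraries. The doses were therefore also compared directly: limma called 0 members between 80 and 60 mM, where 6.17% of all genes were called (4.06% higher and 2.11% lower), and 3 members (Hdac1, Hdac2 and Sirt6) and 2975 genes had an unadjusted p under 0.05. The doses did not overlap for 4 members (Hdac1, Hdac2, Sirt6 and Sirt7) and for 28.5% of genes. The Hdac1 share of class I FPKM was 66.4 ± 0.187% at 0 mM, 71.5 ± 0.511% at 60 mM and 71.8 ± 0.428% at 80 mM.

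**Figure D5:**
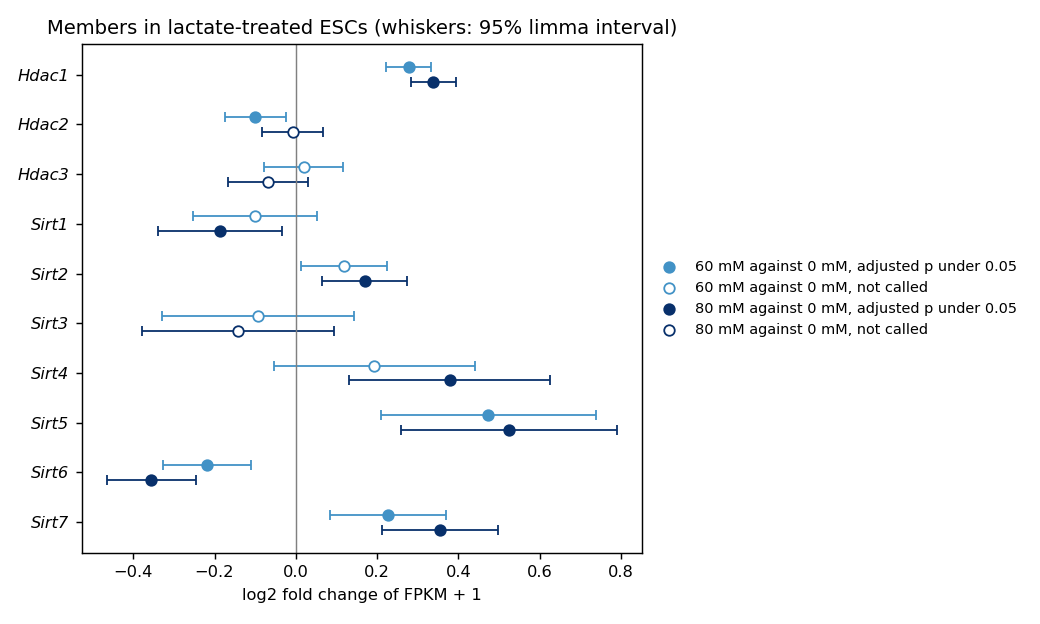
Log2 fold change of FPKM + 1 of each member in ESCs at 60 and 80 mM against 0 mM sodium lactate, with 95% limma intervals, filled where the adjusted p is under 0.05 (3 libraries a group, controls shared by both doses). Sirt5 (0.52 at 80 mM), Sirt7 (0.36) and Hdac1 (0.34) lie right of 0 and Sirt6 (-0.36) left of it. The intervals of Hdac2 and Hdac3 include 0 at 80 mM. Sirt5, near the floor, passed the filter only through the treated groups.

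Other lists differed by lactate dose too. The 7 markers of the 2-cell-like state summed to between 26.4 and 28.0 FPKM at 0 mM, 57.0 and 62.4 at 60 mM and 93.4 and 96.2 at 80 mM. The 8 hypoxia-responsive genes summed to between 90.9 and 91.6, 120 and 123, and 147 and 149 FPKM by rising dose, and the 7 osmotic-response genes to between 361 and 367, 327 and 340, and 333.7 and 334.3. These sums were carried by their most abundant genes, and members of a list differed in direction. Of the hypoxia list, the glucose transporter gene Slc2a1 read 57.05 to 60.3 FPKM at 0 mM and 107.2 to 107.6 at 80 mM, whereas Pdk1 read 8.36 to 9.28 and 3.71 to 4.22. Of the osmotic list, the aldose reductase gene Akr1b3 read 241.5 to 254 FPKM at 0 mM and 206 to 210 at 80 mM. The osmolyte transporter genes Slc6a12 (0.133 to 0.240 and 1.49 to 1.92) and Slc5a3 (0.331 to 0.528 and 0.907 to 1.02) were higher in every 80 mM library. Both were low: Slc5a3 did not pass the filter for testing, and Slc6a12 reached 1 FPKM only at 80 mM. The transporter gene Slc6a6 overlapped, at 55.75 to 58.6 FPKM at 0 mM and 53.84 to 57.75 at 80 mM. The amino acid transporter gene Slc38a2 of that list read 45.5 to 48.6 and 58.4 to 63.3 FPKM. The 6 primed markers summed to between 56.8 and 62.5 FPKM at 0 mM, 81.8 and 90.1 at 60 mM and 88.2 and 92.7 at 80 mM. Dnmt3b carried most of that sum, at 48.7 to 54.0 FPKM at 0 mM and 73.5 to 76.8 at 80 mM. Otx2 rose too, whereas Sfrp2 (2.01 to 2.56 and 1.06 to 1.85) fell and T, Pou3f1 and Fgf5 did not rise. The 6 naive markers, with genes in both directions, summed to between 928 and 980, 993 and 1035, and 1018 and 1052 FPKM by rising dose. The single genes named here were picked after their values were seen. Their part in the changes of the members was not tested. Untreated ESCs of the 2 tables differed in some members, with Sirt5 at 3.08 ± 0.312 FPKM in the cell-state table and 1.01 ± 0.114 in the lactate table, and Hdac1 at 153 ± 1.51 and 205 ± 4.17. The tables were normalized separately, so these values are set side by side with no test.

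Class I enzymes work with partner proteins. Of 39 subunits of the Sin3, NuRD, CoREST, NCoR and MiDAC or MIER complexes, 2 were higher and 32 lower in 2CLCs than in ESCs, with a median log2 difference of -0.90 against -0.46 over all genes. Of all genes, 20.1% were called higher and 56.4% lower. On median-of-ratios values 8 subunits were higher and 18 lower. Ncor1, a scaffold that binds and activates Hdac3, had 18.8 ± 0.371 FPKM in 2CLCs against 56.0 ± 2.50 in ESCs (log2 fold change -1.53; limma adjusted p = 2.01e-08). Sin3a, the scaffold of the Sin3 complex, stood at 11.1 ± 0.389 and 38.8 ± 1.44 FPKM (-1.72; limma adjusted p = 1.36e-09). Arid4a, a Sin3 subunit, went the other way, at 43.6 ± 2.06 against 7.61 ± 0.328 FPKM (2.37; limma adjusted p = 3.33e-09). These 3 kept direction and call with median-of-ratios scaling (Ncor1 -0.79, Sin3a -0.998 and Arid4a 3.10).

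In MEFs 8 subunits were higher and 22 lower than in ESCs, or 14 and 19 on median-of-ratios values. Their median log2 difference was -0.36, against -0.07 over all genes, of which 34.4% were called higher and 40.9% lower. Rcor2, the CoREST subunit, stood at 3.78 ± 0.431 FPKM in MEFs and 67.1 ± 0.575 in ESCs (log2 fold change -3.84; limma adjusted p = 1.63e-12), whereas its paralogue Rcor1 stood at 13.5 ± 0.431 and 9.07 ± 0.164 (0.52; limma adjusted p = 0.000264). Chd3, a NuRD remodeller, stood at 45.8 ± 1.10 FPKM in MEFs and 4.59 ± 0.662 in ESCs (3.07; limma adjusted p = 1.27e-09), and its paralogue Chd4 at 71.5 ± 0.134 and 130 ± 2.16 (-0.86; limma adjusted p = 3.52e-08). In EpiSCs 11 subunits were higher and 11 lower (median -0.06 against 0.01), or 7 and 17 with median-of-ratios scaling. On the deposited scale this lies near the shares of all genes, with 33.2% called higher and 26.5% lower.

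With lactate, 11 subunits were higher and 2 lower at 60 mM (9 and 4 with median-of-ratios scaling) and 14 higher and 5 lower at 80 mM (11 and 12 with that scaling). Of all genes, 23.5% were called higher and 18.6% lower at 60 mM, and 30% and 23.1% at 80 mM. On the deposited scale the shares of subunits called higher lie near these, and the shares called lower lie below them. The median log2 difference at 80 mM was 0.04 against 0.03 over all genes. Rcor2 fell from 82.1 ± 2.01 to 53.9 ± 1.57 FPKM at 80 mM (log2 fold change -0.60; limma adjusted p = 2.06e-06). Chd3 rose from 7.69 ± 0.815 to 14.6 ± 1.40 FPKM (0.85; limma adjusted p = 1.54e-05).

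A list of genes of NAD supply and use and of sirtuin cofactors had 17 tested genes in the cell states and 18 with lactate. It mixes makers of NAD with consumers such as Parp1, so its counts give no direction of NAD supply. In 2CLCs 1 was higher and 14 lower (median -0.96 against -0.46 over all genes; 4 and 9 on median-of-ratios values), in EpiSCs 7 and 5 (median 0.06 against 0.01; 7 and 6 on median-of-ratios values), and in MEFs 6 and 9 (median -0.31 against -0.07; 6 and 8). Over all genes 20.1% were called higher and 56.4% lower in 2CLCs. The corresponding shares were 33.2% and 26.5% in EpiSCs and 34.4% and 40.9% in MEFs, which in these states is near the shares of this list. Nampt, the rate-limiting enzyme of NAD salvage, stood at 14.3 ± 0.9748 FPKM in 2CLCs, 31.4 ± 0.414 in ESCs, 85.3 ± 27.8 in EpiSCs and 14.001 ± 0.570 in MEFs, and all 3 differences from ESCs passed (limma adjusted p = 0.000341, 0.000105 and 0.000274), the first not with median-of-ratios scaling (0.132). Parp1, a major NAD consumer, stood at 20.1 ± 0.136 FPKM in MEFs and 204 ± 4.26 in ESCs (log2 fold change -3.28; limma adjusted p = 3.22e-13). At 80 mM lactate 3 of these genes were higher and 7 lower (median -0.01 against 0.03), where 30% of all genes were called higher and 23.1% lower. Among those lower was Nnt, the mitochondrial transhydrogenase, which fell from 9.43 ± 0.283 to 5.39 ± 0.296 FPKM (-0.71, limma adjusted p = 6.53e-06).

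Across the 12 cell-state libraries, the pattern of Hdac1 was closest to that of Sirt1 among the members (Pearson's r of log2 values, 0.95), that of Hdac3 to Sirt5 (0.92) and that of Sirt2 to Sirt7 (0.88), while Hdac1 and Sirt2 ran opposite (-0.99). These 12 points are 4 groups of 3 and share their library scaling, so r mainly sets group means side by side. Among all other tested genes, the pattern most like that of Hdac1 was that of Ston2 (r = 0.9974), then Tra2b (0.9966). For Hdac2 it was Dnmt3b (0.992) and Calca (0.9919), and for Hdac3 Pknox1 (0.9947) and Map9 (0.9946). For the nuclear sirtuins it was Fancm (0.9926) and Ddx39 (0.9917) with Sirt1, Lifr (0.9732) and Tek (0.9607) with Sirt6, and Ctsb (0.9891) and Itm2b (0.9888) with Sirt7. Sirt2 was closest to Inka1 (0.9976) and Slc5a3 (0.9969). For the mitochondrial sirtuins it was Malt1 (0.9749) and AI597479 (0.9729) with Sirt3, Atp5e (0.9549) and Atp11b (0.9443) with Sirt4, and Wasf2 (0.9924) and Anks3 (0.9903) with Sirt5.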

How the data were processed

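RNA sequencing of 21 libraries (7 groups of 3) was analysed. Per the labels' protocols, total RNA was taken with a Trizol method, libraries were made with a TruSeq kit and a MiSeq was used; per the submitters' processing notes, HISAT2 2.0.4, StringTie 2.1.4 and mm10 were used. The authors deposited FPKM, in 2 tables normalized separately and tested apart. Entries with the same name were summed. FPKM times length showed no common step in single-exon genes (0.71 to 2.32% at the commonest value), so depth is unknown and no counting interval is given.

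After adding a pseudocount of 1 and taking log2, limma 3.58.1 (R 4.3.3) was run on each table as a whole, keeping genes that reached 1 FPKM in 3 or more libraries, with a mean trend, two-sided tests and Benjamini-Hochberg adjustment over all tested genes at 0.05. The scripts were tested on simulated data. The members and lists were chosen with earlier results of these data known. Gene-to-gene ratios were not among the shares set in advance. All 10 members are named, with the 2 genes of most like pattern for each, predicted names left out. Of each list, genes were named from among preset anchor genes and the 4 called genes of largest change per comparison. Not all of these were printed. Genes of the hypoxia, osmotic and primed lists were picked after seeing their values. Alternatives were pseudocounts of 0.1 and 5, no filter or 5 FPKM, quantile normalization, median-of-ratios scaling, a replicate block, leaving out the mean trend, only the compared groups and leaving out each library; leaving EpiSC replicate 1 out of the shared spread was added after seeing the data. Gene positions are from GENCODE M21 (GRCm38) and promoters from RefSeq (GRCm38.p6), which held Hdac2 and the 7 sirtuins. Python 3.11.15, numpy 2.4.6, pandas 2.3.3 and matplotlib 3.10.9 were used.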

Additional observations from a re-analysis of the deposited data

How the results depend on the processing

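Of 90 tests of a member in a comparison, 56 were called, and 40 of these kept their call and direction in every alternative that tested them. The calls of Sirt5 are among the 40, though a filter of 5 FPKM left that gene untested. Scaling moved most. With median-of-ratios scaling the 2CLC against ESC value turned for Sirt1 (0.72), Sirt2 (0.40), Sirt4 (0.0474) and Sirt7 (0.68), the 2CLC against EpiSC value for Hdac2 (0.55), Sirt4 (0.20) and Sirt6 (0.73), and the 2CLC against MEF value for Sirt3 (0.0103) and Sirt4 (0.39). It also turned Sirt5 (-0.026) in EpiSCs against ESCs, Hdac3 (0.086) in MEFs against ESCs, Sirt6 (-0.15) in EpiSCs against MEFs and Hdac3 (-0.0238) at 60 against 0 mM. Quantile normalization turned, for 2CLCs against ESCs, Hdac1 (-0.04), Sirt1 (0.30), Sirt2 (0.16) and Sirt7 (0.42); against EpiSCs, Sirt4 (0.0098) and Sirt6 (0.51); and against MEFs, Sirt3 (0.0526) and Sirt4 (0.43). It also turned Sirt5 (-0.17) in EpiSCs and Hdac3 (0.0857) in MEFs against ESCs, and Hdac2 (0.0162) at 80 against 0 mM. Of the values turned in these settings, 8 had been called. Leaving out 1 library turned 19 values, 0 of them called, and the number of members called then ranged from 5 to 7 for 2CLCs against ESCs, 5 to 7 for EpiSCs, 7 to 9 for MEFs, 7 to 8 for 2CLCs against EpiSCs and against MEFs, 7 to 9 for EpiSCs against MEFs, 3 to 5 at 60 mM, 5 to 7 at 80 mM and 0 between the doses. Turned values in these fits ran, over all libraries left out, for 2CLCs against ESCs from -0.0494 to 0.0523 (Sirt7), for EpiSCs against ESCs from -0.18 to 0.13 (Sirt4) and -0.0605 to 0.15 (Sirt5), for 2CLCs against EpiSCs from -0.23 to 0.0518 (Sirt6), and for 2CLCs against MEFs from -0.16 to 0.0339 (Sirt4) and -0.0231 to 0.13 (Sirt6). With lactate they ran from -0.19 to 0.0054 (Sirt3) and -0.0068 to 0.0415 (Hdac3) at 60 mM, from -0.0345 to 0.0186 (Hdac2) at 80 mM, and from -0.07 to 0.14 (Sirt5) and -0.11 to 0.0194 (Sirt3) between the doses. With the replicate number as a block, 9 members were called for 2CLCs against EpiSCs (8 without the block), 7 for 2CLCs against MEFs (8) and 6 at 80 mM (7), the last losing Sirt1 (limma adjusted p = 0.0599); the block left the other counts as they were. Same-numbered libraries correlated between -0.066 and 0.10 in their deviations. Each 60 mM library correlated best with the 80 mM library of its own number, though weakly (r = 0.0085 to 0.0352). Whether the numbers pair the samples cannot be told from such values. With a filter of 5 FPKM, 4 members were called for 2CLCs against ESCs, since low members such as Sirt5 were then not tested. The cause of these shifts was not tested. With 3 libraries a group and an unknown depth, small differences of the lowest members, Sirt4 and Sirt5, are the least certain.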

Other observations

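The other zinc-dependent deacetylases, that is Hdac8 of class I and those of classes II and IV, and the acyltransferases that add acetyl or lactyl groups were counted beside the members. Of 8 further deacetylase genes, 7 were higher and 0 lower in EpiSCs than in ESCs (median log2 difference 1.02 against 0.01 over all genes, with 33.2% of genes called higher), with the same counts under median-of-ratios scaling. In MEFs 5 were higher and 1 lower (6 and 1 with that scaling), where 34.4% of all genes were called higher and 40.9% lower. In 2CLCs 2 were higher and 3 lower (5 and 2 with median-of-ratios scaling), where 20.1% and 56.4% of all genes were. Hdac8 stood at 1.74 ± 0.404 FPKM in 2CLCs, 1.87 ± 0.148 in ESCs, 4.39 ± 0.140 in EpiSCs and 3.62 ± 0.178 in MEFs. Hdac7, a class IIa gene, stood at 0.163 ± 0.0350 FPKM in 2CLCs, 1.32 ± 0.140 in ESCs, 6.51 ± 0.661 in EpiSCs and 23.0 ± 1.11 in MEFs, and each difference from ESCs passed (limma adjusted p = 7.39e-07, 2.07e-08 and 1.83e-11). Hdac9, of the same class, had 4.99 ± 1.39 FPKM in 2CLCs against 0.0777 ± 0.0215 in ESCs (log2 fold change 2.45; limma adjusted p = 6.96e-07). Hdac6, the other tubulin deacetylase beside Sirt2, was lower in MEFs, at 6.85 ± 0.461 against 19.2 ± 0.845 FPKM in ESCs (-1.37; limma adjusted p = 5.63e-08), where Sirt2 was higher.

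Of 12 genes of acetyl and lactyl writers, 0 were higher and 11 lower in MEFs than in ESCs, also with median-of-ratios scaling, and 0 were higher and 11 lower in 2CLCs (2 and 7 with that scaling). Of all genes, 34.4% were called higher and 40.9% lower in MEFs, and 20.1% and 56.4% in 2CLCs. The median log2 difference of the writers was -1.49 in MEFs, against -0.07 over all genes, and -1.04 in 2CLCs, against -0.46. At 60 and at 80 mM lactate 2 were higher and 8 lower (1 and 8 with that scaling at either dose). Of all genes, 23.5% and 30% were called higher and 18.6% and 23.1% lower at these doses. The median log2 difference of the writers was -0.15 and -0.28, against 0.03 over all genes at either dose. Kat2b, an acetyltransferase of the SAGA and ATAC complexes, fell from 17.9 ± 0.509 to 10.5 ± 0.328 FPKM at 80 mM (log2 fold change -0.72; limma adjusted p = 1.83e-06), and Aars, the cytosolic alanyl-tRNA synthetase described as a lactyltransferase, fell from 170 ± 2.17 to 125 ± 1.54 (-0.44; limma adjusted p = 4.00e-07).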
